A study of Mus musculus with 18 samples.

Results

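The Slc25 family is the set of carrier proteins, nearly all in the inner mitochondrial membrane, that move nucleotides, phosphate, carboxylates, amino acids, acylcarnitines, cofactors and metal ions between the cytosol and the mitochondrial matrix. In skeletal muscle the ADP/ATP carrier hands ATP to the contractile machinery, the aspartate/glutamate carrier serves the malate-aspartate shuttle that brings reducing equivalents into mitochondria, and the ATP-Mg/phosphate carriers, which bind calcium on their cytosolic side, set the size of the matrix adenine nucleotide pool. Members were the protein-coding genes with a symbol of the form Slc25a plus a number and an exon length above 0. That rule gave 47 genes of the 21993 protein-coding genes with an exon length and of the 48709 genes listed. It used names and annotation only, and no measured value.

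Whole quadriceps of 18 mice was profiled by bulk RNA-seq, with 1 library per mouse. The dyW mice, strain B6.129S1(Cg)-Lama2tm1Eeng/J, have a knock-out allele of Lama2, which encodes laminin alpha 2, and stand for the congenital muscular dystrophy that loss of LAMA2 causes in people. The protocol describes the mutant colony as hemizygous. Healthy controls, called WT here, were C57BL/6J. The drug TD139 blocks the sugar-binding protein galectin-3, and PBS is a buffered saline given here as the comparison. The groups were untreated WT (n = 3), untreated dyW (n = 4), WT PBS (n = 3), dyW PBS (n = 3), WT TD139 (n = 2) and dyW TD139 (n = 3). The untreated mice have an age label of 5 weeks and the treated mice one of 3 weeks, while the protocol places tissue collection at 5 weeks for all. Every group held both sexes. The labels name the drug but neither its dose nor its schedule.

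Libraries held 15.8 to 45.2 M exon reads, and carrier reads made up 0.413% to 0.566% of them. Lama2 itself was at 5.21 to 6.76 in untreated WT and at 0.431 to 0.766 in untreated dyW, and at 2.84 to 5.83 in treated WT against 0.644 to 1.14 in treated dyW. Every level in the text is an RPKM (reads per exon length and library size) after TMM scaling (trimmed mean of M-values, which corrects for differences in composition between libraries), called scaled RPKM below, and levels of different genes are compared on that per-length scale only. The skeletal muscle markers Ckm, Acta1, Des, Mb and Casq1 summed to 20010 to 59185 in all 18 libraries. Untreated dyW, at 20010 to 25888, lay below untreated WT, at 30337 to 40811, without overlap. The genotypes also stood apart under TD139, with dyW the lower, but overlapped under PBS. Of these 5 genes, 2 fell and 1 rose in untreated dyW. Their median log2 fold change was -0.52, against 0.03 for all genes. The part of muscle content in the carrier falls given below was not tested. In bulk tissue, fewer cells of a type and less RNA per cell cannot be told apart. Untreated dyW replicates 1 and 2 stood apart in the markers of fat listed other than Lep. The 5 adipocyte markers Adipoq, Plin1, Cidec, Fabp4 and Lep summed to 2123 and 1992 in untreated dyW replicates 1 and 2, to 687 and 439 in replicates 3 and 4, and to 185 to 653 in untreated WT. Most of the sum was Fabp4, at 1809 and 1722 in replicates 1 and 2. Lep was at 2.13 and 0.627 in replicates 1 and 2, and at 1.94 and 0.813 in replicates 3 and 4. Of the 5 markers, 1 passed the test in untreated dyW against WT. Ucp1, the brown fat uncoupling protein, was at 556 in untreated dyW replicate 2, 60.9 in replicate 1 and 67.4 in untreated WT replicate 1, and at 0 to 3.33 in the other untreated libraries. The 7 slow fibre markers summed to 1400 and 1894 in untreated dyW replicates 3 and 4, to 2280 in WT PBS replicate 1, and to at most 286 in the other libraries. Of the other cell types listed, 2 of 4 endothelial markers and all 3 tested neutrophil markers rose in untreated dyW, and Ly6g, which defines neutrophils, was at 0.0348 in untreated WT replicate 1 and at 0 in the other libraries.

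In healthy muscle the family was dominated by 1 gene. Slc25a4, the ADP/ATP carrier of heart and muscle, had a mean scaled RPKM of 1419 ± 72.1 (SD, n = 3) in untreated WT and made up 73.1% ± 0.624 of the summed scaled RPKM of the family. Below it came Slc25a3 (98.3 ± 5.08), the phosphate carrier, and Slc25a11 (97.9 ± 12.4), the 2-oxoglutarate carrier of the malate-aspartate shuttle, whose levels did not differ beyond their spread. Slc25a12 (61.3 ± 1.92) and Slc25a25 (51.8 ± 15.8) followed and overlapped in their libraries. In all, 1 member had a mean over 100, 10 lay between 10 and 100, 23 between 1 and 10, and 13 under 1. Slc25a54 had no read in any of the 18 libraries.

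The members fell on 19 chromosomes, so the family is not a cluster. Sequence upstream of the transcription start was matched in RefSeq (GRCm38.p6) for 36 of the 47 members, with 46 start sites. The windows printed here, chosen after the values were seen, are those of Slc25a25, the member that fell most below, of Slc25a24, its relative that rose, and of Slc25a5, the ADP/ATP carrier that rose. Of the starts inside Slc25a25, the one shown is that with a cAMP response element. Each holds the 250 bases before the start, 5′ to 3′ on the gene's strand, at chr2:32451471-32451720 (minus strand) for the outer start of Slc25a25, chr2:32424067-32424316 (minus) for a start inside the Slc25a25 gene, chr3:109122899-109123148 (plus) for Slc25a24 and chrX:36795347-36795596 (plus) for Slc25a5. None of the 4 windows overlaps an annotated exon of its gene. Capitals mark matches, on either strand, to TGACGTCA (the cAMP response element), CCAAT (the CCAAT box) and GGGCGG (the GC box).
Slc25a25 outer start: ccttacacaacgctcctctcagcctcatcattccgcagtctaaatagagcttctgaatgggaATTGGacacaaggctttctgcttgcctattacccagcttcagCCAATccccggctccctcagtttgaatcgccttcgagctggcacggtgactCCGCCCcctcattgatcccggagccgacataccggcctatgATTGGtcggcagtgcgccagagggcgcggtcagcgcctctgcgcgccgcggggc
Slc25a25 inner start: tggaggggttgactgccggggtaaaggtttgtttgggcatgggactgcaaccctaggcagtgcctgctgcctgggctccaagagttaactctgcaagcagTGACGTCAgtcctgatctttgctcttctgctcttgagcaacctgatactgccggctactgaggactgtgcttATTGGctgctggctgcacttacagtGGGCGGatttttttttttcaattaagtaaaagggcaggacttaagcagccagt
Slc25a24: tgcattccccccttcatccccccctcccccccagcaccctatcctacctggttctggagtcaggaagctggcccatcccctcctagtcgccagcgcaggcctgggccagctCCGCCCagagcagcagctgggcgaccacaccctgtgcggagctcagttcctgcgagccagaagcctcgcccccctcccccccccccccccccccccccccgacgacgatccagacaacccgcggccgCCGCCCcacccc
Slc25a5: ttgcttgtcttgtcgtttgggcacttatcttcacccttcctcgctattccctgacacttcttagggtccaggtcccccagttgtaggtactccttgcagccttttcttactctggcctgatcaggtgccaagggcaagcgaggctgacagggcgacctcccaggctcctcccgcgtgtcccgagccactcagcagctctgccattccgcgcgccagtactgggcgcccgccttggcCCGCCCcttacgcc

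The outer start of Slc25a25 holds 3 CCAAT boxes and 1 GC box, and the inner start holds 1 cAMP response element, 150 bases before the start (position -150), with 1 CCAAT box and 1 GC box. Slc25a24 holds 2 GC boxes and Slc25a5 holds 1, and neither holds a cAMP response element or a CCAAT box. Over all 32851 windows of the same length, 1.55% hold TGACGTCA, 33.8% hold CCAAT and 32.7% hold GGGCGG. Among the 46 windows of members the shares are 4.35%, 45.7% and 69.6%, and the 2 members with a cAMP response element are Slc25a25 and Slc25a36. The motif of nuclear respiratory factor 1 is in 0.782% of all windows, and TNAAGGTCA, that of the oestrogen-related receptors, in 1.14%. Neither is in a window of a member. The median GC content was 57.4% for member windows and 52.4% for all windows. A match is a run of letters and not a site shown to be used.

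The first comparison asks how carrier transcripts of untreated dyW quadriceps differ from those of untreated WT. Members moved in both directions: 8 rose, among them Slc25a24 and Slc25a5, and 8 fell, among them Slc25a25 and Slc25a12. That is 16 of the 40 members tested by edgeR's quasi-likelihood test (adjusted p under 0.05 over all genes), against 49.8% of all 14846 genes (24.7% higher, 25.1% lower). The median log2 fold change was -0.02 over the members and 0.03 over all genes. Of the tested members, 6 had every dyW library above every WT library, against 25.9% of all genes tested, and 12 had every one below, against 28% of all genes tested. Leaving out untreated WT replicate 2 left 3 members called higher, and leaving out untreated WT replicate 3 left 4. Over all genes, calls higher went from 3671 of 14846 to 2844 of 15188 and 2798 of 15157. Without untreated dyW replicates 1 and 2, 5 members were called higher and 13 lower, against 4047 and 3974 of 14882 genes. Without these and untreated WT replicate 1, 14 were called lower, against 4205 of 14798 genes. The 7 members that did not pass the filter on low counts were Slc25a2, Slc25a18, Slc25a21, Slc25a31, Slc25a41, Slc25a43 and Slc25a54, with 0 to 153 reads each over the 18 libraries.

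**Figure D1:**
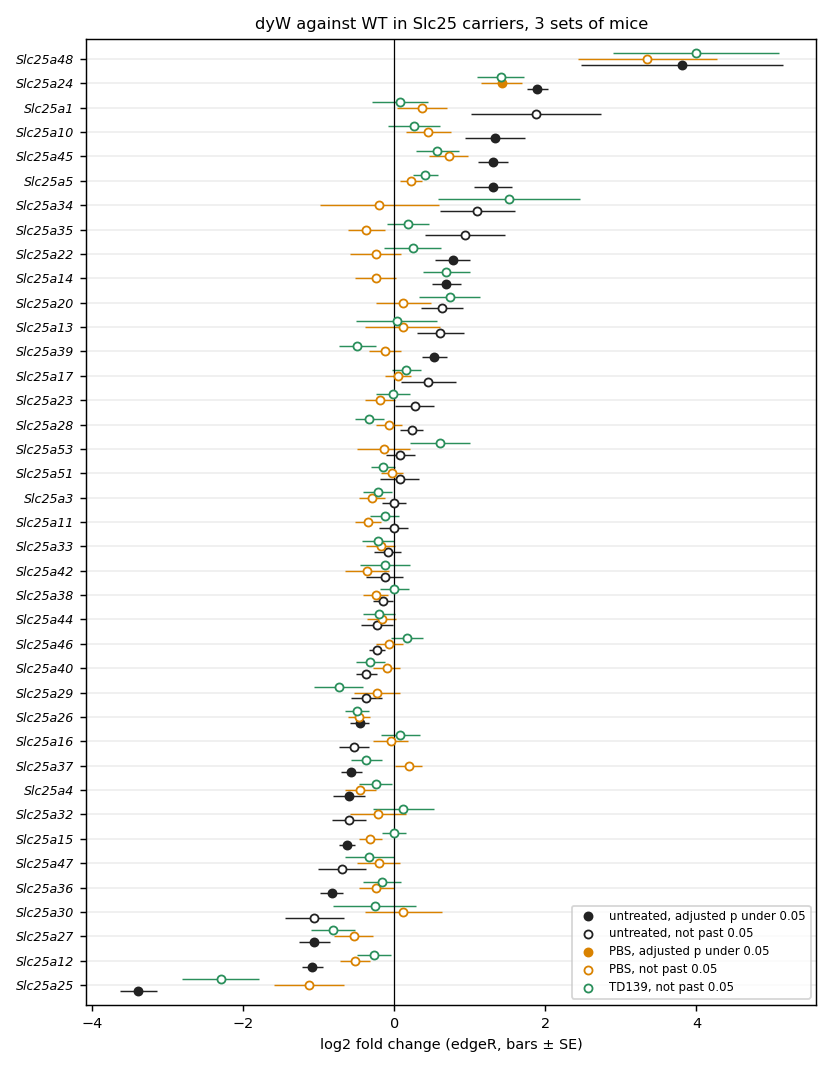
log2 fold change (x axis, edgeR, bars ± SE) of dyW against WT for carriers tested in the untreated mice (1 line each), in untreated mice (black), under PBS (orange) and under TD139 (green), with filled points where the adjusted p was under 0.05. Slc25a25 lies farthest to the left in all 3 colours, at -3.39, -1.13 and -2.30, and Slc25a24 lies between 1.41 and 1.89 in all 3.

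The ATP-Mg/phosphate carriers gave the member that fell most and 1 that rose. Slc25a25, the calcium-binding form abundant in muscle (ENSMUSG00000026819, chr2:32414487-32451445, mm10), was at 40.7, 44.8 and 69.9 in untreated WT and at 6.30, 3.87, 4.05 and 5.36 in untreated dyW. The groups were far apart, with the highest dyW library well below the lowest WT library. The log2 fold change was -3.39 (SE 0.25, edgeR adjusted p = 0.000117). Slc25a24 (ENSMUSG00000040322, chr3:109123149-109168457), the form known from many other tissues and proliferating cells, was at 2.43, 1.98 and 1.81 in WT and at 8.47, 7.63, 7.64 and 6.80 in dyW. It rose by 1.89 on the log2 scale (SE 0.14, edgeR adjusted p = 0.00012). Both calls held in 18 of 18 alternatives, including those without the libraries rich in fat or slow fibre markers. Slc25a23, another expressed form, was at 4.31 to 5.63 in WT and 3.87 to 8.0 in dyW (log2 fold change 0.27, SE 0.26, edgeR adjusted p = 0.41), and Slc25a41 had at most 2 reads in any untreated library.

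The order of the 2 genes was inverted between the untreated genotypes. For each 100 of scaled RPKM of Slc25a25 there were 5.96, 4.43 and 2.59 of Slc25a24 in WT, and 134, 197, 188 and 127 in dyW. This ratio and those below were formed after the values had been seen and carry no test. Among the members called, Slc25a25 overlaps Naif1 on the other strand, as do Slc25a26 with Lrig1 and Slc25a10 with Gm11788. So do Slc25a36 with Gm16185 and Slc25a37 with Gm27222 and Gm27223. Members not called overlap too, among them Slc25a11 with Rnf167, Slc25a35 with Rangrf and Slc25a23 with Crb3 and Gm17168. Whether the counting used the strand is not given in the sources used here, and without it reads of such pairs cannot be told apart. Macrophage and regenerating fibre markers moved in the direction of Slc25a24: all 6 macrophage markers and all 4 regenerating fibre markers rose, with summed levels of 349 to 410 against 64.8 to 110 in WT for the first and 126 to 209 against 7.19 to 18.4 for the second. All 5 fibroblast markers were detected, 3 rose, and they summed to 983 to 1542 against 721 to 796. The part of these cells in the rises of Slc25a24 and Slc25a5 was not tested. Fast fibre markers moved in the direction of Slc25a25, Slc25a4 and Slc25a12: 5 of 6 fell, with sums of 16612 to 26165 in untreated dyW against 48461 to 67859 in untreated WT. Their part in these falls was not tested.

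The ADP/ATP carriers also moved apart. Slc25a4 (ENSMUSG00000031633, chr8:46206797-46211284) was at 1441, 1338 and 1477 in untreated WT and at 836, 670, 988 and 1203 in untreated dyW. All dyW libraries lay below all WT libraries, with replicate 2 lowest and replicate 4 nearest to WT. The log2 fold change was -0.60 (SE 0.21, edgeR adjusted p = 0.0408). That call was close to the threshold and was lost in 12 of 18 alternatives: the log2 fold change was -0.33 (edgeR adjusted p = 0.144) without untreated dyW replicates 1 and 2, and leaving out any single untreated library other than dyW replicate 4 (WT 1, 2 or 3, dyW 1, 2 or 3) gave an edgeR adjusted p of 0.0737 to 0.11. Slc25a5 (ENSMUSG00000016319, chrX:36795651-36798807), the form of dividing and non-muscle cells, was at 34.2, 22.7 and 25.0 in WT and at 82.0, 85.6, 52.0 and 47.4 in dyW. It rose by 1.31 (SE 0.25, edgeR adjusted p = 0.00329), and by 0.90 (edgeR adjusted p = 0.00687) without dyW replicates 1 and 2, the libraries highest in adipocyte markers. Slc25a31, the germ cell form, had 2 reads in untreated WT and 11 in untreated dyW.

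Per 100 of Slc25a4 there were 2.37, 1.70 and 1.69 of Slc25a5 in WT, and 9.80, 12.8, 5.26 and 3.93 in dyW. Slc25a4 remained the main ADP/ATP carrier transcript in every library. Its share of the family sum was 72.4% to 73.6% in untreated WT and 52.7% to 71.2% in untreated dyW. The sum itself was 1817 to 2015 in WT and 1271 to 1690 in dyW. Slc25a3, the phosphate carrier that supplies ATP synthase with its second substrate, was at 100, 92.6 and 102 in WT and at 82.0, 86.5, 107 and 113 in dyW, with 2 dyW libraries below and 2 above those of WT (log2 fold change 0.00, SE 0.16, edgeR adjusted p = 0.988). On deposited RPKM, which is not corrected for composition, limma gave 0.53 for it with a pseudocount of 0.1 (limma adjusted p = 0.03). On that scale the median of all genes itself moved from 0.03 to 0.51.

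**Figure D2:**
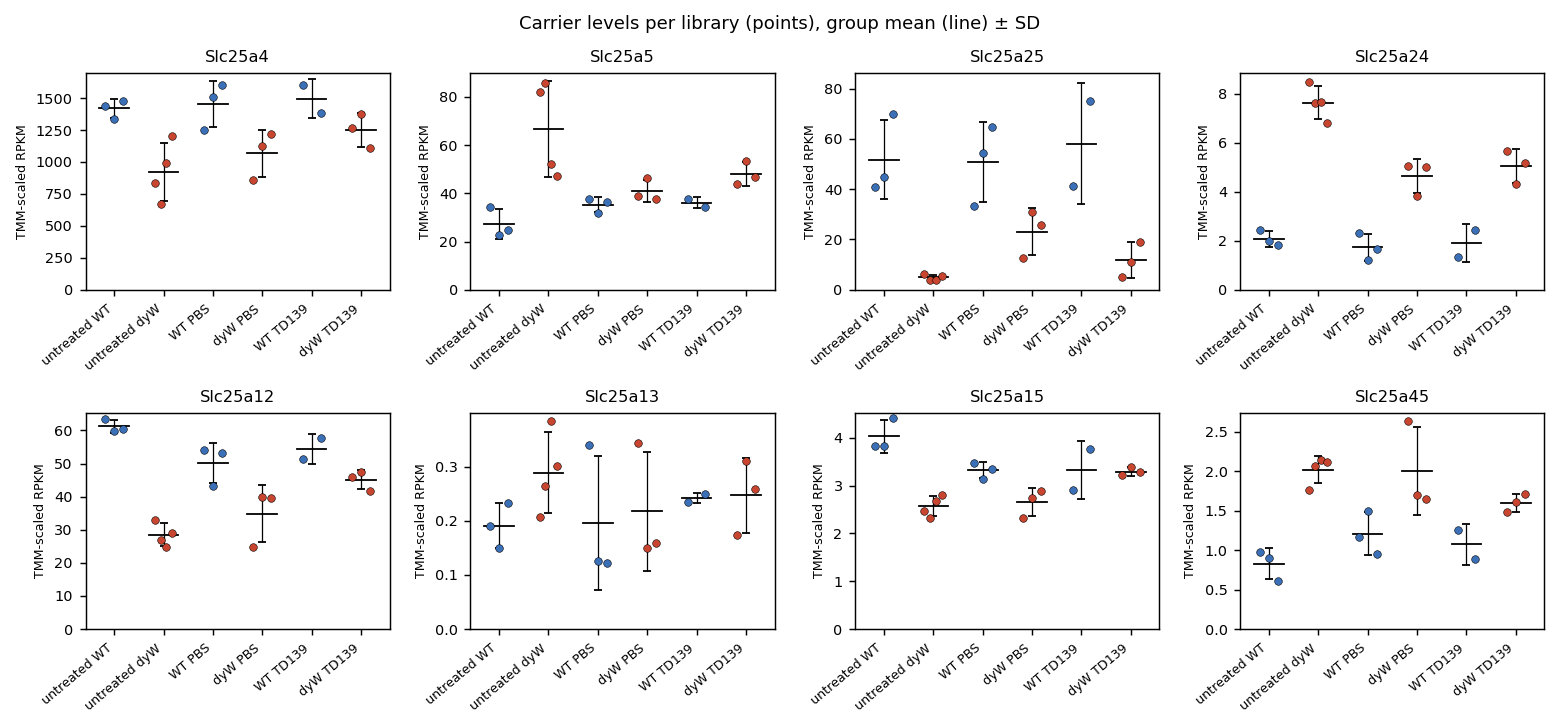
Scaled RPKM (y axis, linear, from 0) of 8 carriers in each library (points, WT blue, dyW red) of the 6 groups (x axis), with the group mean (line) and SD (bars). Slc25a25 and Slc25a24 of untreated dyW do not overlap those of untreated WT, while Slc25a13 stays under 0.4 in every library.

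**Figure D3:**
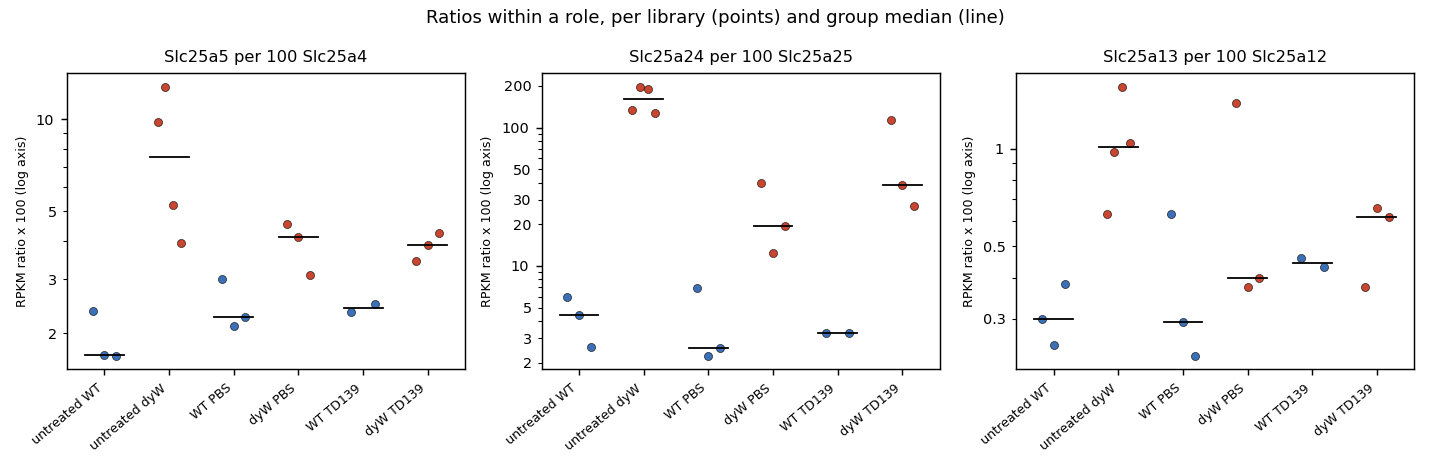
Level of 1 carrier per 100 of another with the same role (y axis, log scale) in each library (points, WT blue, dyW red) and the group median (line), for the 6 groups (x axis). Slc25a24 per 100 Slc25a25 was 2.59 to 5.96 in untreated WT and 127 to 197 in untreated dyW.

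The aspartate/glutamate carrier of muscle fell. Slc25a12, also called aralar (ENSMUSG00000027010, chr2:71271063-71367749), was at 63.5, 59.9 and 60.5 in untreated WT and at 33.0, 27.0, 24.8 and 29.0 in untreated dyW. The groups did not overlap and the spread within each was small beside the gap. It fell by 1.09 on the log2 scale (SE 0.14, edgeR adjusted p = 0.000454), in 18 of 18 alternatives. Slc25a13, or citrin, the form of liver, was at 0.149 to 0.232 in WT and 0.207 to 0.384 in dyW (log2 fold change 0.61, SE 0.31, edgeR adjusted p = 0.128), and its level per 100 of Slc25a12 was 0.249 to 0.384 in WT and 0.627 to 1.55 in dyW. Slc25a22, a glutamate carrier, was at 3.88, 2.57 and 3.09 in WT and at 4.92, 7.55, 4.94 and 4.03 in dyW, a rise of 0.77 (SE 0.23, edgeR adjusted p = 0.0231) that was 0.54 (edgeR adjusted p = 0.0582) without dyW replicates 1 and 2, and 0.68 (edgeR adjusted p = 0.0143) without WT replicate 1 as well. The edgeR adjusted p was 0.0885 without WT replicate 2 and 0.0736 without WT replicate 3.

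Among the di- and tricarboxylate carriers the 2-oxoglutarate carrier did not pass the test and the dicarboxylate carrier did. Slc25a11 was at 110, 85.1 and 98.8 in WT and at 78.2, 78.8, 106 and 122 in dyW (log2 fold change -0.01, SE 0.19, edgeR adjusted p = 0.979). Slc25a10, which exchanges malate or succinate for phosphate, was at 3.02, 1.63 and 2.21 in WT and at 8.05, 7.41, 4.87 and 2.45 in dyW. It rose by 1.33 (SE 0.40, edgeR adjusted p = 0.0223), with replicate 4 inside the WT range. Without dyW replicates 1 and 2 its log2 fold change was 0.72 (edgeR adjusted p = 0.124), and 0.95 (0.0591) without WT replicate 1 as well. The edgeR adjusted p was 0.0832 without WT replicate 2, 0.0703 without WT replicate 3 and 0.0517 without dyW replicate 2. Slc25a1, the citrate carrier that feeds fatty acid synthesis, was at 14.8, 3.83 and 5.15 in WT and at 44.9, 55.8, 10.3 and 4.48 in dyW (log2 fold change 1.88, SE 0.86, edgeR adjusted p = 0.0999). Its 3 highest untreated libraries, dyW 1, dyW 2 and WT 1, were also the 3 with Ucp1 at 60.9 or more. The part of fat in these values was not tested. Slc25a21, the oxodicarboxylate carrier, had at most 2 reads in any untreated library.

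**Figure D4:**
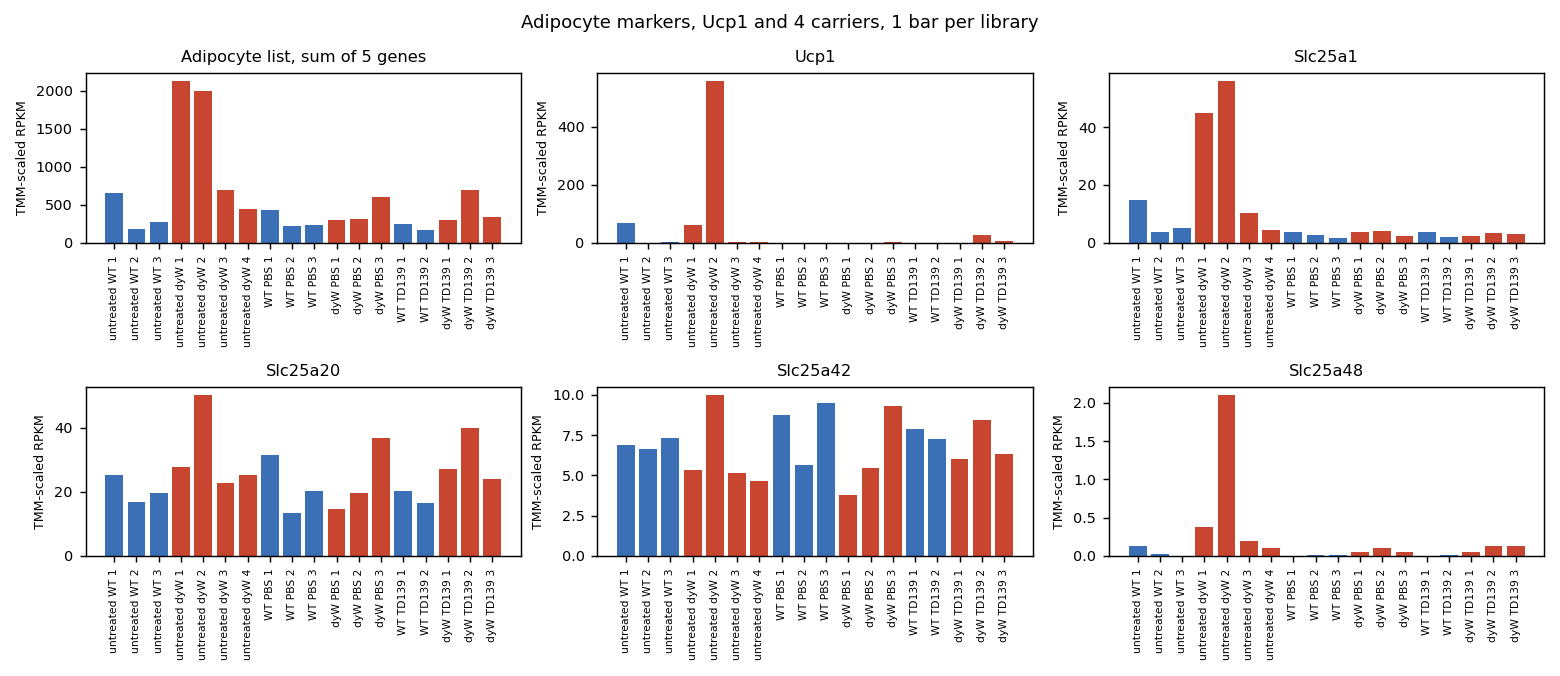
Scaled RPKM (y axis, from 0) in each of the 18 libraries (1 bar each, WT blue, dyW red) of the summed adipocyte markers, Ucp1 and 4 carriers. Untreated dyW replicates 1 and 2 have the highest adipocyte sums (2123 and 1992) and the highest Slc25a1 (44.9 and 55.8), and replicate 2 has the highest Slc25a48 (2.11).

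The carnitine/acylcarnitine carrier Slc25a20, which brings long-chain acyl groups to beta-oxidation, was at 25.3, 16.7 and 19.7 in WT and at 27.7, 50.3, 22.7 and 25.4 in dyW. The high value of replicate 2 stood out and the groups overlapped (log2 fold change 0.63, SE 0.28, edgeR adjusted p = 0.0943). Of its relatives, Slc25a45 rose: it was at 0.978, 0.897 and 0.604 in WT and at 1.76, 2.06, 2.14 and 2.12 in dyW (log2 fold change 1.31, SE 0.20, edgeR adjusted p = 0.00122), without overlap and with almost the same value in libraries rich and poor in adipocyte markers. That call held in 18 of 18 alternatives. Slc25a48 was at 0.126, 0.021 and 0 in WT and at 0.375, 2.11, 0.190 and 0.109 in dyW, with 15 reads in all of untreated WT and 477 in untreated dyW. Its log2 fold change of 3.81 (SE 1.34, edgeR adjusted p = 0.042) was 2.22 (edgeR adjusted p = 0.0904) without dyW replicate 2, which held 362 of those reads. The edgeR adjusted p was 0.125 without WT replicate 2, 0.118 without WT replicate 3 and 0.0844 with sex as a term. Without dyW replicates 1 and 2 the log2 fold change was 1.62 (edgeR adjusted p = 0.198), and 3.79 (0.0155) without WT replicate 1 as well. By limma on log2(RPKM + 1) it was 0.63 (limma adjusted p = 0.148). Slc25a47, known mainly from liver, was at 1.15 to 2.65 in WT and 0.789 to 1.32 in dyW (log2 fold change -0.69, edgeR adjusted p = 0.1).

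The ornithine and methyl donor carriers fell. Slc25a15, the ornithine carrier of the urea cycle, was at 3.83, 3.83 and 4.42 in WT and at 2.48, 2.32, 2.68 and 2.80 in dyW, a fall of 0.63 (SE 0.11, edgeR adjusted p = 0.0023) that was -0.08 and -0.06 by limma on deposited RPKM (limma adjusted p = 0.623 and 0.627). Slc25a26, the S-adenosylmethionine carrier, was at 3.71, 3.72 and 3.86 in WT and at 2.43, 2.55, 2.60 and 3.29 in dyW. It fell by 0.46 (SE 0.13, edgeR adjusted p = 0.0195). On deposited RPKM limma gave it the other sign, near 0 (0.08 and 0.06, limma adjusted p = 0.653 and 0.647). In those fits the median of all genes was 0.51 and 0.29. Its edgeR adjusted p was 0.0596, 0.0593 and 0.0612 without WT replicate 3, dyW replicate 2 and dyW replicate 3, and 0.078 without dyW replicates 1 and 2. Slc25a29, a carrier of basic amino acids, had overlapping groups at 1.71 to 1.89 and 1.06 to 1.84. Slc25a38, the glycine carrier needed for haem synthesis, and Slc25a44, the carrier of branched-chain amino acids, did not pass the test (log2 fold changes -0.15 and -0.23, edgeR adjusted p = 0.365 and 0.395).

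The uncoupling-protein-like members split. Slc25a14 was at 0.541, 0.495 and 0.553 in WT and at 0.794, 0.898, 0.840 and 0.862 in dyW, a rise of 0.69 (SE 0.19, edgeR adjusted p = 0.0172) without overlap. The edgeR adjusted p was 0.0595 without WT replicate 2, 0.0606 without dyW replicates 3 and 4, and 0.0623 without WT replicate 1 and dyW replicates 1 and 2. Slc25a27 was at 2.62, 4.87 and 3.48 in WT and at 1.82, 1.82, 1.54 and 1.77 in dyW, a fall of 1.06 (SE 0.21, edgeR adjusted p = 0.00331) that was -0.33 by limma on log2(RPKM + 1) (limma adjusted p = 0.0506). Slc25a30 was at 1.17, 3.20 and 1.97 in WT and at 1.26, 1.24, 0.981 and 0.524 in dyW (log2 fold change -1.06, SE 0.39, edgeR adjusted p = 0.0509). All 3 names refer to sequence likeness, and their transport activity is less well known than that of the members above.

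Of the iron, glutathione and cofactor carriers 1 rose and 2 fell, and the others did not pass the test. Slc25a37, mitoferrin 1, which imports iron for haem and iron-sulphur clusters, was at 4.59, 6.79 and 5.98 in WT and at 4.24, 3.63, 3.89 and 3.63 in dyW, a fall of 0.57 (SE 0.14, edgeR adjusted p = 0.0105). On deposited RPKM it was -0.01 by limma (adjusted p = 0.955 and 0.951), and without dyW replicates 3 and 4 the edgeR adjusted p was 0.0596. Its paralogue Slc25a28, mitoferrin 2, was at 9.27 to 11.1 in WT and 10.3 to 15.1 in dyW (log2 fold change 0.23, edgeR adjusted p = 0.239). The sum of the 6 erythroid markers was 157 to 536 in untreated WT and 261 to 594 in untreated dyW, and 0 of the 5 tested passed the threshold.

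Slc25a39, which imports glutathione, was at 15.8, 13.8 and 16 in WT and at 20.5, 28.9, 18.2 and 18.9 in dyW, a rise of 0.53 (SE 0.17, edgeR adjusted p = 0.0337) that was lost without any 1 of the 3 WT libraries. Its relative Slc25a40 was at 0.685 to 0.862 in WT and 0.564 to 0.610 in dyW (log2 fold change -0.37, edgeR adjusted p = 0.0539). Of the 8 cofactor and nucleotide carriers, 1 passed the test: Slc25a36, a pyrimidine nucleotide carrier, was at 7.71, 5.36 and 5.6 in WT and at 3.18, 3.57, 3.27 and 3.81 in dyW, a fall of 0.83 (SE 0.15, edgeR adjusted p = 0.00212) that was -0.26 and -0.22 by limma on deposited RPKM (limma adjusted p = 0.253 and 0.257). Of the others, Slc25a16 and Slc25a32 had log2 fold changes of -0.54 and -0.60 (edgeR adjusted p = 0.0502 and 0.0606), and Slc25a17, Slc25a33, Slc25a42 and Slc25a51 lay between -0.13 and 0.45. Slc25a46 of the outer membrane and the 3 tested members with no substrate given here, Slc25a34, Slc25a35 and Slc25a53, did not pass the test.

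Untreated dyW replicate 2 was the highest of the 4 dyW libraries in 19 of the 40 members, against 9 in replicate 1, 2 in replicate 3 and 10 in replicate 4. Among the 8 members called higher it was highest in 5. The same count was not made over all genes, so whether this order is particular to the members was not tested. Replicate 2 is also the library with Ucp1 at 556. The part of fat in those values was not tested.

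The genotype comparison was then made in the treated mice, which share no library with the untreated mice. Under PBS 1 member was called, Slc25a24, which rose by 1.42 (SE 0.27, edgeR adjusted p = 0.0172). It was at 2.31, 1.23 and 1.66 in WT PBS and at 5.06, 3.82 and 5.02 in dyW PBS, without overlap. That is 2.38% of the 42 members tested, against 2.68% of all 15331 genes (2.4% higher, 0.28% lower). Leaving out dyW PBS replicate 1, WT PBS replicate 2 or WT PBS replicate 3 left no member called (edgeR adjusted p = 0.0746, 0.0638 and 0.0749 for Slc25a24), where its log2 fold change was 1.35, 1.22 and 1.39. The call held in 12 of 15 alternatives. Without WT PBS replicate 1, rich in slow fibre markers, the log2 fold change was 1.68 (edgeR adjusted p = 0.0123). All 6 macrophage markers rose here too (summed level 109 to 251 against 35.5 to 48.7), as did 3 of 4 regenerating fibre markers (78.3 to 111 against 21.2 to 31.9) and 1 of 5 fibroblast markers (747 to 1428 against 691 to 1137), and their part in the rise of Slc25a24 was not tested.

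Slc25a25 was at 33.2, 54.4 and 64.7 in WT PBS and at 12.7, 30.9 and 25.6 in dyW PBS. All dyW libraries were below all WT libraries, but the gap was narrow (log2 fold change -1.13, SE 0.46, edgeR adjusted p = 0.266). The lowest WT value, 33.2, is that of WT PBS replicate 1, the library with a slow fibre sum of 2280. Without it the log2 fold change was -1.36 (edgeR adjusted p = 0.147). Without dyW PBS replicate 1, the library with the fewest exon reads (15.8 M), it was -0.84 (edgeR adjusted p = 0.623). Over all 15 alternatives it was -1.42 to -0.84, and Slc25a25 was not called in any of them. Slc25a12 was at 54.0, 43.1 and 53.0 in WT PBS and at 24.8, 39.9 and 39.5 in dyW PBS (log2 fold change -0.52, SE 0.20, edgeR adjusted p = 0.234). Its log2 fold change was -0.33 (edgeR adjusted p = 0.562) without dyW PBS replicate 1. Slc25a4 (-0.45), Slc25a5 (0.22), Slc25a3 (-0.30), Slc25a11 (-0.35), Slc25a13 (0.11) and Slc25a20 (0.12) did not pass the test, with edgeR adjusted p between 0.325 and 0.95. Slc25a45 was at 1.17, 1.49 and 0.952 in WT PBS and at 2.64, 1.70 and 1.65 in dyW PBS, without overlap (log2 fold change 0.72, SE 0.26, edgeR adjusted p = 0.195). Slc25a48 had 2 reads in WT PBS and 22 in dyW PBS (edgeR adjusted p = 0.0816), and Slc25a26 fell short of the threshold at -0.47 (edgeR adjusted p = 0.137). Per 100 of Slc25a25 there were 2.25 to 6.95 of Slc25a24 in WT PBS and 12.3 to 39.8 in dyW PBS, so Slc25a25 stayed the higher of the pair in every PBS library. Of the 42 members, 31 had a log2 fold change below 0, and the median was -0.19 against -0.03 for all genes.

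Under TD139 no member passed the threshold in dyW against WT by edgeR, against 1.04% of all genes (0.757% higher, 0.287% lower). Of the 42 members tested, 8 had an unadjusted p under 0.05, against 2430 of the 15331 genes. Slc25a24 was at 1.35 and 2.45 in WT TD139 and at 5.67, 4.31 and 5.17 in dyW TD139 (log2 fold change 1.41, SE 0.31, edgeR adjusted p = 0.0532). Slc25a25 was at 41.1 and 75.2 in WT TD139 and at 5.05, 11.2 and 19.1 in dyW TD139 (log2 fold change -2.30, SE 0.51, edgeR adjusted p = 0.0551). The ratio of the pair was 3.26 and 3.27 in WT TD139 and 27.0 to 112 in dyW TD139, with Slc25a24 the higher in dyW TD139 replicate 1 only among the treated libraries. Both were on the other side of the threshold with DESeq2. It called 1 member higher and 1 lower, against 476 and 263 of the 15331 genes. Slc25a48 came next by p (1 read in WT TD139, 43 in dyW TD139, edgeR adjusted p = 0.109). Slc25a4 (-0.25), Slc25a5 (0.41), Slc25a3 (-0.22), Slc25a11 (-0.13), Slc25a12 (-0.27), Slc25a13 (0.03) and Slc25a20 (0.73) had edgeR adjusted p between 0.254 and 0.988.

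Set side by side, the 8 members that rose in untreated dyW had median log2 fold changes of 1.31 untreated, 0.34 under PBS and 0.49 under TD139, and 5 of the 8 were above 0 in all 3. The 8 that fell had medians of -0.73, -0.46 and -0.32, and 7 of the 8 were below 0 in all 3. Under PBS, 31 of the 42 members tested were below 0. Of the 24 members not called untreated, 13 kept their untreated sign in both treated comparisons. Over all genes the share that kept its sign was not counted. The sizes were smaller than untreated in 15 of the 16 under PBS and in 14 of the 16 under TD139; since the 16 were chosen for their untreated values, a smaller size elsewhere is a description. The test of the difference between the untreated and the PBS genotype effect, over all 18 libraries, called no member by edgeR. That stands against 1.72% of all 15771 genes (0.526% higher, 1.2% lower). Of the 42 members tested, 8 had an unadjusted p under 0.05, against 3583 of the 15771 genes. DESeq2 called 2 members higher and 1 lower, against 553 and 636 of all genes. The smallest adjusted p was for Slc25a25, whose effect differed by -2.27 (SE 0.58, edgeR adjusted p = 0.0552), followed by Slc25a5 at 1.07 (SE 0.29, edgeR adjusted p = 0.0658). The cohorts differ in age label and in injection, and these cannot be told apart.

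The treatment comparisons ask whether TD139 moved carrier transcripts. No member passed the threshold by edgeR in dyW or in WT, nor did any of the 15331 genes tested (background 0%). An unadjusted p under 0.05 was seen for 1 member in each, against 583 genes in dyW and 304 in WT. DESeq2 called no member either, and 4 genes in dyW and 3 in WT. In dyW the smallest p among members belonged to Slc25a35, a carrier with no substrate given here, which was at 1.12, 1.96 and 1.42 under PBS and at 1.71, 3.14 and 2.02 under TD139 (log2 fold change 0.60, SE 0.25, edgeR adjusted p = 0.888). Slc25a15 was at 2.32, 2.75 and 2.89 under PBS and at 3.21, 3.38 and 3.28 under TD139 (0.31, SE 0.15, edgeR adjusted p = 0.888). Slc25a25, with 12.7, 30.9 and 25.6 against 5.05, 11.2 and 19.1, had a log2 fold change of -0.97 (SE 0.46, edgeR adjusted p = 0.888), with overlapping groups.

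The carriers of ATP, phosphate, carnitine and the shuttles did not pass the test in dyW with TD139: Slc25a4 had a log2 fold change of 0.23, Slc25a5 0.23, Slc25a3 0.10, Slc25a11 0.26, Slc25a12 0.37, Slc25a13 0.22 and Slc25a20 0.35, with standard errors of 0.15 to 0.49. In WT the smallest p belonged to Slc25a14 (-0.70, SE 0.31), Slc25a37 (0.42, SE 0.20) and Slc25a22 (-0.65, SE 0.38), each with an edgeR adjusted p of 1. The difference between the 2 treatment effects called no member and no gene by edgeR, with 294 genes at an unadjusted p under 0.05 and 1 call by DESeq2. Slc25a14 (0.94, SE 0.41), Slc25a37 (-0.56, SE 0.27) and Slc25a25 (-1.17, SE 0.68) came first there. The group of 2 WT TD139 libraries limits the precision of these values, and a p that misses the threshold does not show that levels were alike. These comparisons share libraries with the genotype comparisons of the treated mice.

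**Figure D5:**
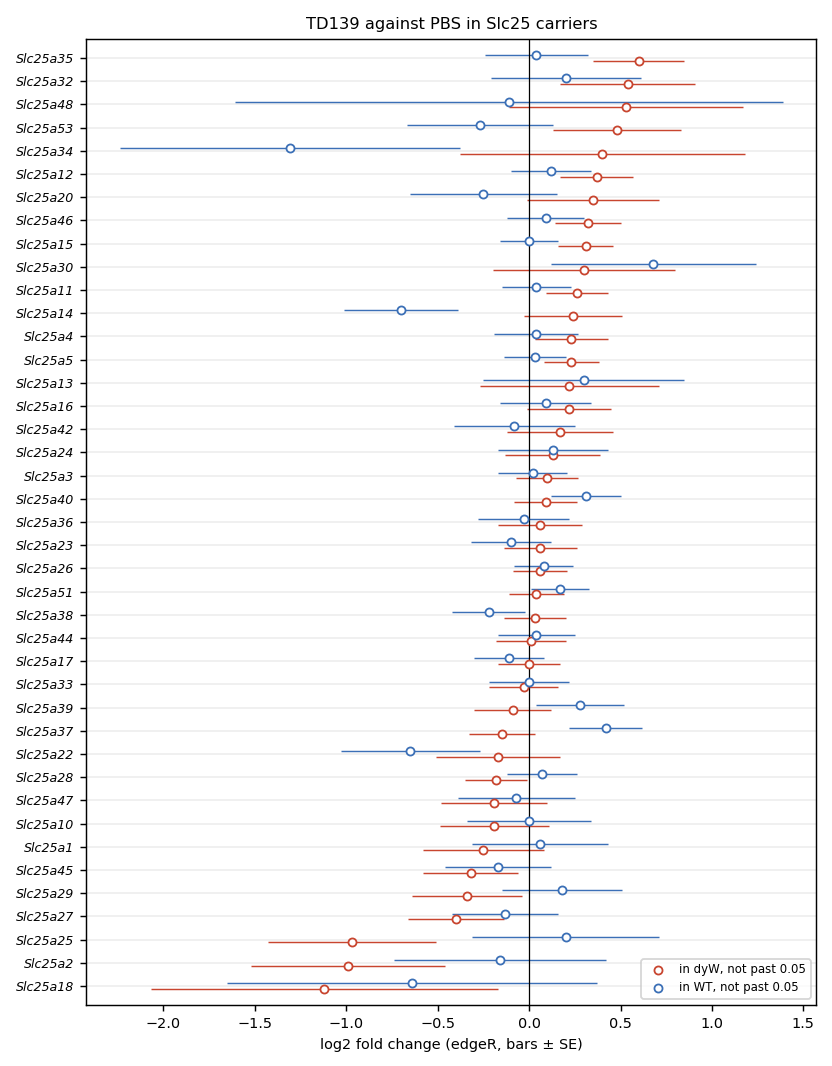
log2 fold change (x axis, edgeR, bars ± SE) of TD139 against PBS for tested carriers in dyW (red) and in WT (blue). Every point is open, since no carrier plotted passed an adjusted p of 0.05, and Slc25a25 in dyW lies at -0.97 with an SE of 0.46.

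Genes that work beside the family were read from 11 lists in the untreated mice. Of their 73 tested members 12 rose and 19 fell, against 24.7% and 25.1% of all genes. Of its 5 relatives under other symbols, Ucp2 rose by 2.17 (SE 0.12, edgeR adjusted p = 6.7e-05) and Mtch1 by 1.29, while Ucp3, the muscle uncoupling protein, fell by 1.04 (edgeR adjusted p = 0.024). Of 3 porins, the outer membrane channels, Vdac1 (-0.94) and Vdac3 (-0.75) fell. Of 8 iron-sulphur and haem genes 5 fell, among them Nfs1 (-0.80) and Abcb10 (-0.65). Of 16 ATP synthase genes 1 rose (Atpif1, the inhibitory factor, 0.80) and 1 fell (Atp5j, -0.54), with a median of -0.02.

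The calcium uniporter list had 3 that rose, among them Mcu (0.55), and 1 that fell, Micu3 (-1.43), of 5 tested. Of 6 shuttle enzymes 1 fell, Gpd2 (-1.80, edgeR adjusted p = 0.0111), and neither of the 2 pyruvate carrier genes passed the test. The carnitine shuttle enzymes gave 2 that rose, Cpt1c (1.34) and Cpt1a (0.63), and 1 that fell, Crat (-0.54), of 5. The carrier import list gave 2 that rose, Tomm40 (0.59) and Tomm20 (0.39), and 2 that fell, among them Tomm70a (-0.49), of 8. Mitochondrial one-carbon genes gave 1 of 5 in each direction, Mthfd1l (1.89) and Aldh1l2 (-1.62), and of 10 matrix and membrane genes 1 rose, Phb2 (0.66), and 4 fell, among them Opa1 (-0.92) and Dnm1l (-0.63). None of these 11 lists had a member past the threshold under PBS or under TD139 in dyW against WT. Over all genes these shares were also small, 2.68% under PBS and 1.04% under TD139.

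The authors' deposited table of dyW against WT lists 46 members with a p-value, 10 higher and 9 lower at an FDR under 0.05, against 15.7% and 16.3% of the 22297 genes with a p-value in that table (32% in either direction), of which 13 are among the 16 called here. The authors' deposited table of TD139 against PBS in dyW has no member at that level, against 0.33% of its genes (0.199% higher, 0.131% lower), and the smallest FDR p of a member there is 0.48.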

How the data were processed

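Polyadenylated RNA of 18 quadriceps, 1 library per mouse, was prepared with a stranded kit and read as pairs of 58 bp, per the labels. The authors deposited, per library, total and unique exon read counts, exon lengths and RPKM values for each gene of mm10, the build in the submitters' processing notes; the aligner and counter are not given in the sources used here. Their 2 comparison tables hold a log2 fold change, a fold change and p-values, as deposited by the authors, and are named where used.

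Tests of the total exon read counts used edgeR 4.0.16 (R 4.3.3; TMM, filterByExpr with minimum count 10 and minimum total 15, quasi-likelihood F-test, Benjamini-Hochberg over all genes tested, adjusted p under 0.05). The untreated libraries were fitted alone, the treated libraries as 4 groups, and the cohort difference on all 18 libraries. The SE is the log2 fold change divided by the root of F. Levels are RPKM computed with TMM-scaled library sizes. Named members are up to 8 per direction by p, the ADP/ATP, phosphate, aspartate/glutamate and carnitine carriers, and the 5 highest in untreated WT; other genes are up to 3 per list by p. Alternatives were DESeq2 1.42.0, RLE, no filter, limma 3.58.1 on log2(RPKM + 0.1 or 1), unique reads, sex, other sets of libraries and leaving out each library; 3 exclusions of untreated libraries were added after seeing the data. The members and lists were chosen with earlier results of these data known. The script was tested on simulated data. Nothing says whether a count is a read or a pair. A few genes that the rules would name are not reported here, and 1 tested member is left out of the plots of fold changes.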

Additional observations from a re-analysis of the deposited data

Results flagged for a closer look

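In the untreated dyW group of 4, untreated dyW replicate 2 stood far above the others in 2 of the 40 members tested. Slc25a42, a coenzyme A carrier, was at a scaled RPKM of 10 there and at 4.68 to 5.32 in the other 3 libraries. Slc25a48 was at 2.11 there and at 0.109 to 0.375 in the others. The same library had Ucp1 at 556 and an adipocyte marker sum of 1992. The part of fat in these values was not tested. A gap of this size is expected by chance in about 1 of 20 groups, and 40 members were examined.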

How the results depend on the processing

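In the untreated mice, 8 members were called higher and 8 lower; leaving out single libraries gave 3 to 9 and 6 to 9. Over all genes the main fit called 3671 higher and 3724 lower. limma on log2(RPKM + 0.1) gave 17 and 3, against 7636 and 1293 of all genes. limma on log2(RPKM + 1) gave 16 and 2, against 7434 and 1288. The values without dyW 1 and 2 were 5 and 13 (all genes 4047 and 3974). Without those and WT 1 there were 14 lower (all genes 4205). Deposited RPKM is not composition-corrected, which moved the median of all genes by over 0.1. On it Slc25a26 had the other sign, near 0 (0.08 and 0.06, limma adjusted p = 0.653 and 0.647). Slc25a3, which had an edgeR adjusted p of 0.988 in the main fit, was at 0.53 and 0.53 there. The median of all genes in those 2 limma fits was 0.51 and 0.29. Under PBS the 1 call higher became 0 to 1 on leaving out single libraries. For dyW against WT under TD139, 0 became 1 higher with DESeq2, no filter, limma + 1, unique reads, sex, all 18 libraries or the 2 groups alone, 2 with limma + 0.1, and 0 to 1 on leaving out single libraries (1 without WT TD139 replicate 2, where the lone WT TD139 library is assumed to vary like the other groups); 0 became 1 lower with DESeq2, no filter, limma + 0.1, unique reads or all 18 libraries. For the cohort difference, 0 became 2 higher with DESeq2, 1 with limma + 1 and 0 to 1 on leaving out single libraries, and 0 became 1 lower with DESeq2 or no filter and 0 to 2 on leaving out single libraries. The cause was not tested. The counts for TD139 against PBS stayed at 0 in each alternative run. No paired analysis was possible because each library carries its own animal number and the replicates are numbered in accession order. Members under about 10 reads per library cannot show a difference at this depth.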
